A study of Mus musculus with 47 samples.

Results

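PHF10 sites that appeared after 48 h of transforming growth factor β1 (TGFβ1) at places without H3K4me3 numbered 14654, or 13.1% of the 112181 PHF10 sites in the 4 control lists. A site was made by joining overlapping PHF10 peaks of both 48 h and both 0 h control libraries. A gained site was called in both 48 h libraries and in neither 0 h library, and it was taken as lying outside H3K4me3 when it overlapped no control H3K4me3 peak at 48 h or 0 h. A further 7913 gained sites overlapped an H3K4me3 peak, so that gained sites of either kind were 20.1% of all sites. The sites were thus selected on their PHF10 calls at 48 and 0 h and on the absence of H3K4me3, and these values are given only as a description.

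NMuMG cells, a mouse mammary epithelial line, pass through an epithelial to mesenchymal transition under TGFβ1. Pbrm1 knockout (KO) cells, whose libraries carry the guide name sg3, and control cells received TGFβ1 at 5 ng/ml for 48 h or 24 h, or none (0 h). Chromatin immunoprecipitation with sequencing was done in KO cells for PHF10, ATF3, FOSL2 and FOSB, and in control cells for these, for BRG1 at 0 h, and for H3K4me3, H3K4me1, H3K27ac, H3K14ac and H3K18ac at 48 and 0 h. PHF10, BRG1 and ATF3 chromatin was fixed with disuccinimidyl glutarate and formaldehyde, and the other targets with formaldehyde only. Each control PHF10 time point other than 24 h had 2 libraries. Every other list came from 1 library, and whether replicates were separate cultures is not given in the labels. The labels used here do not state whether the KO is a clone or a pool.

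PHF10 is a plant homeodomain finger subunit of PBAF, the form of the SWI/SNF remodeller that also holds the bromodomain protein PBRM1. BRG1, encoded by Smarca4, is the ATPase that moves nucleosomes in this and the other SWI/SNF forms. FOSL2, FOSB and ATF3 are bZIP proteins that bind DNA as dimers. FOS proteins with JUN partners favour the AP-1 element, and ATF proteins favour the related cyclic AMP response element. H3K4me3 marks promoters, H3K4me1 marks enhancers and promoter flanks, and the acetylations accompany active chromatin.

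The AP-1 element lay in or next to a few gained sites that reached an annotated transcription start. The next 4 RefSeq promoter windows of GRCm38.p6, each running 5′ to 3′ from 250 bases before to 50 bases after a start, are shown because a gained site, a bZIP peak and 1 copy of TGANTCA all fell in or overlapped the same window. The capitals mark that copy, which lies inside the gained site in all but the Ksr1 window, where it lies just beyond the end of the site. The first 2 windows overlapped a FOSL2 peak at 48 h, and the other 2 windows overlapped an ATF3 peak at 48 h.
Gm35551: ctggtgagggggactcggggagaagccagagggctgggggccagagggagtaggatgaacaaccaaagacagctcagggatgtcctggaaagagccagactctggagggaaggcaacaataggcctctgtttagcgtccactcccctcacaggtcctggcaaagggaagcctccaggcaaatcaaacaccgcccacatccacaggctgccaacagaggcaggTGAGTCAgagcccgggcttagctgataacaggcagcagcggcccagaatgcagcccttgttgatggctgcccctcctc
2010003K11Rik: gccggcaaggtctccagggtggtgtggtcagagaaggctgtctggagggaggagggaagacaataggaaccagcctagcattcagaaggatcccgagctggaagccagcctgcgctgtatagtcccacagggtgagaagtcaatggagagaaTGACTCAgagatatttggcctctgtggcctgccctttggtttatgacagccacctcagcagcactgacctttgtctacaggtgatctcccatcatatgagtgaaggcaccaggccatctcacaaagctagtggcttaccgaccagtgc
Ksr1: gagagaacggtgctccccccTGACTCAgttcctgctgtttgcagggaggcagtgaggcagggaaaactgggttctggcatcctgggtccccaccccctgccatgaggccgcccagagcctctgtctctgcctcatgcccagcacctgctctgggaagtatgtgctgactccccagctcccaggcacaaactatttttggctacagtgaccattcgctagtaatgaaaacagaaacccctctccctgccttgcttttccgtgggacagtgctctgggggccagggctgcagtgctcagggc
Car9: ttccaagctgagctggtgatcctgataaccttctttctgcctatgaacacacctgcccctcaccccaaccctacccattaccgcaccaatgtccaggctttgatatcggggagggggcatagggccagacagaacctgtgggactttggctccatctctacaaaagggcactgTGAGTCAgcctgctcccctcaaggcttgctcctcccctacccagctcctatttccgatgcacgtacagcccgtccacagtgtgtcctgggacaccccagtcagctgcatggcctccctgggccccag

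The Gm35551 window (chr17:84026272-84026571, minus strand) held TGAGTCA 14 bp from the FOSL2 summit. PHF10 fold enrichment there, as the authors' peak lists give it, was 2.81 and 1.95 in the 48 h replicates. The same place carried FOSL2 in the KO (10) and in control (5.47), and BRG1 (2.76) and H3K27ac (6.58) at 0 h. In the 2010003K11Rik window (chr19:4498534-4498833, minus strand), TGACTCA lay 31 bp from the FOSL2 summit, and PHF10 fold was 2.03 and 2.5. Both FOSL2 summits lay close to the element.

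The ATF3 summits stood farther from it. In the window of Ksr1, a scaffold of the RAF to ERK kinase cascade (chr11:79059787-79060086, minus strand), the ATF3 summit lay 253 bp from TGACTCA. The corresponding distance was 143 bp at Car9, which encodes a carbonic anhydrase induced in hypoxia (chr4:43506776-43507075, plus strand). PHF10 fold was 2.77 and 3.04 at Ksr1 and 3.38 and 3.59 at Car9, in 48 h replicates 1 and 2. The windows were chosen for holding the element, so these distances describe 4 places and not the whole set.

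Gained sites outside H3K4me3 overlapped 739 of 32851 promoter windows, or 2.25%. TGANTCA, read on both strands, occurred in 8.53% (6.61 to 10.8) of those 739 and in 7.81% (7.52 to 8.1) of all windows. Ranges in brackets after a share are 95% intervals by the exact Clopper-Pearson method and take in counting error alone. Among the 78 windows that overlapped a gained site and a BRG1 peak at 0 h, 15 held TGANTCA, or 19.2% (11.2 to 29.7). Among the 130 that overlapped a gained site and an ATF3 peak at 48 h, 5 did, or 3.85% (1.26 to 8.75). Shares among all promoter windows with a BRG1 or ATF3 peak are not given here. The cyclic AMP response element TGACGTCA, read on both strands, holds no TGANTCA and was in 9 of the 739 windows (1.22%) and in 1.79% of all windows. The windows cover no chromosome 18 gene, and sequence outside promoter windows was not used here.

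The 32 peak lists held 806216 peaks on assembled chromosomes, from 2 to 158815 each. Control PHF10 lists held 43549 and 102434 peaks at 48 h and 11285 and 14731 at 0 h, so the gain was drawn from unequal lists. With each of the 4 lists reduced to the 11285 most significant peaks, 286 sites met the rule, and with a −log10 q of at least 5 everywhere 171 did. Read totals were not used here, and more reads and more binding cannot be told apart. Nor can binding in more cells be told apart from stronger binding per cell in these bulk libraries. H3K4me3 peaks at 0 h lay within 2 kb of 35 of 40 epithelial marker genes and of 17 of 26 markers of other cell types. For H3K27ac at 0 h these counts were 35 and 10.

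At the gained sites outside H3K4me3, PHF10 peaks were weak and similar in both 48 h libraries. The median fold was 2.87 in replicate 1 (lowest 1.37, highest 6.99) and 2.87 in replicate 2 (1.71 to 8.15). Median −log10 q was 2.14 and 3.13, and 167 sites reached 5 in both lists. Gained sites at H3K4me3 had median folds of 2.86 and 2.97, and all peaks of these lists had 2.99 and 2.92. A low fold was thus not particular to the sites outside H3K4me3. Site width ran between 212 and 10998 bp with a median of 804 bp, and the gained sites at H3K4me3 had a median of 916 bp. At 24 h, 1225 of the sites had a PHF10 peak, or 8.36% (background 22.7%), with a median fold of 3.48. Gained sites at H3K4me3 were called at 24 h in 66.4% (65.4 to 67.5). With gained sites divided into 4 width classes at the quartiles of those outside H3K4me3, the narrowest (212 to 395 bp) had 24 h shares of 6.08% outside and 53.2% at H3K4me3, and the widest had 11.8% and 71.8%. The 24 h share was lower outside H3K4me3 in each of the 4 width classes. Only 1 of the 8095 sites called in all 4 control lists lay outside H3K4me3.

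**Figure D1:**
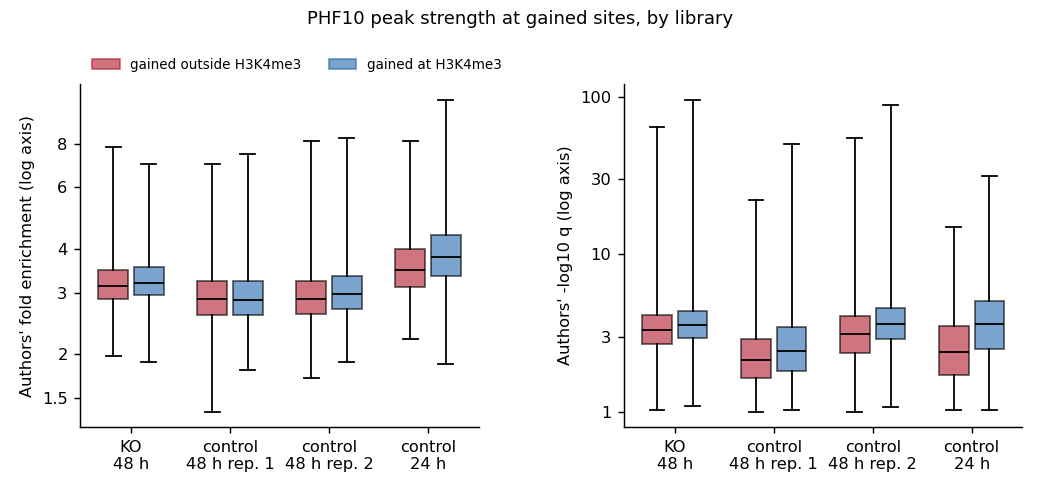
PHF10 fold enrichment (left, log axis) and −log10 q (right, log axis) at gained sites outside and at H3K4me3, for the KO 48 h, control 48 h replicate 1, control 48 h replicate 2 and control 24 h libraries; boxes span the quartiles, lines are medians and whiskers reach the lowest and highest site. Median fold outside H3K4me3 was 3.13 in the KO, 2.87 in both control 48 h replicates and 3.48 at 24 h, over the sites called in each list.

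The 10 strongest sites were narrow, between 268 and 469 bp. Most had no control peak of BRG1, ATF3, FOSL2, FOSB or a histone mark, which was also so for 60.9% of all 14654 sites. The strongest lay inside Nnt, the mitochondrial transhydrogenase gene (chromosome 13, 119366272 to 119366539), with fold 5.96 and 6.38 in the 48 h replicates. It had no BRG1, ATF3, FOSL2, FOSB or histone mark peak in control and no PHF10, ATF3 or FOSL2 peak in the KO at 48 h. The next lay inside Ankrd17, which encodes an ankyrin repeat protein (chromosome 5, 90333448 to 90333775), with 6.75 in the KO and 6.76 and 5.51 in the control replicates. A site inside Ift57, an intraflagellar transport gene, had 4.37 in the KO and 5.68 and 5.43 in control, and carried ATF3 (11) and H3K14ac (7.09) at 48 h. The site 64848 bp from the protocadherin gene Pcdh18 differed most between replicates, with 3.33 and 8.15, and had the highest ATF3 fold of the 10 (13.9). ATF3 lay at 4 of these 10 sites and BRG1, FOSL2 and H3K27ac at 0 of them. Over all 14654 sites the shares were 24.9% for ATF3 and 0.58% for FOSL2 at 48 h. They were 9.91% for BRG1 and 5.28% for H3K27ac at 0 h. Regions of artificially high signal were not masked, and 3 of the 10 lay over 100 kb from any protein-coding gene.

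Distance to H3K4me3 had a median of 13703 bp. The members just inside the rule lay 11 bp away at the least, with 2 under 100 bp and 269 (1.84%) under 1 kb. Just outside it, gained sites at H3K4me3 overlapped the mark by as few as 5 bp and by a median of 398 bp. The median distance to an annotated transcription start was 18420 bp outside H3K4me3 and 11693 bp at H3K4me3, and 5.26% and 22.5% lay under 1 kb. Gene spans held 62.3% of sites outside H3K4me3 and 61.9% of all PHF10 sites.

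BRG1, profiled at 0 h only, already lay at 1452 of the sites, or 9.91% (9.43 to 10.4), before TGFβ1. That is near the background of 10.5% over all PHF10 sites, and these sites took up 5.05% of BRG1 peaks. At gained sites at H3K4me3 the share was 13.3% (12.6 to 14.1), and at sites of 48 h replicate 2 alone outside H3K4me3 it was 3.89% (3.74 to 4.05). BRG1 peaks stood at 1.6 per 100 sites in each 250 bp bin next to the centre and at 0.84 beyond 4 kb. Sites with BRG1 were wider than those without (median 1110 and 768 bp) and had a lower median PHF10 fold (2.71 and 2.91).

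The share of these sites with acetylation differed by mark and time. H3K14ac was called at 2144 sites at 48 h, 14.6% (14.1 to 15.2) against a background of 26.6%, and at 0 sites at 0 h (background 2.73%), which allows a share of up to 0.0205%. The 48 h and 0 h H3K14ac lists held 35270 and 3453 peaks, and the 3453 most significant 48 h peaks overlapped 0 of the sites. H3K27ac was called less often at 48 h, with 74 sites at 48 h, 0.505% (background 10.6%), and 774 at 0 h, 5.28% (background 15.5%). Of the 774, 49 had H3K27ac at both times, 0.334% of the sites (background 10.3%). At 48 h alone it lay at 25 sites, 0.171% (background 0.278%). The H3K27ac lists held 15962 and 20507 peaks at 48 and 0 h. H3K18ac was called at 252 sites at 48 h, 1.72% (background 6.7%), and at 251 at 0 h, 1.71% (background 2.52%). It lay at 104 sites at both times, 0.71% (background 1.85%). Any of the 3 acetylations lay at 2262 sites (15.4%) at 48 h and at 837 (5.71%) at 0 h, under the 27.2% and 15.9% of all PHF10 sites. They were above the 4% and 0.975% of sites of 48 h replicate 2 alone outside H3K4me3.

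H3K4me1, the enhancer mark, was called at 11 sites at 48 h (0.0751%, background 9.89%) and at 916 at 0 h (6.25%, background 15%). The H3K4me1 lists were unlike, with 12863 peaks of median fold 8.46 at 48 h and 20179 of median fold 3.44 at 0 h. Loss of the mark cannot be told apart from fewer weak peaks called at 48 h. Gained sites at H3K4me3 held more of every mark but H3K14ac at 0 h, which both kinds lacked. H3K14ac at 48 h lay at 82.1% of them (81.3 to 83), H3K27ac at 11.6% at 48 h and 35.2% at 0 h, and H3K4me1 at 17.7% at 48 h and 54.3% at 0 h. In the widest class (1316 to 10998 bp) H3K14ac at 48 h lay at 19.4% of sites outside and at 80.1% of sites at H3K4me3. H3K27ac at 0 h and BRG1 at 0 h met at 530 sites outside H3K4me3, 3.62% (background 7.13%). Of sites with H3K27ac at 0 h, 59.4% (55.9 to 62.9) had H3K14ac at 48 h, against 12.1% (11.6 to 12.7) of the rest.

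**Figure D2:**
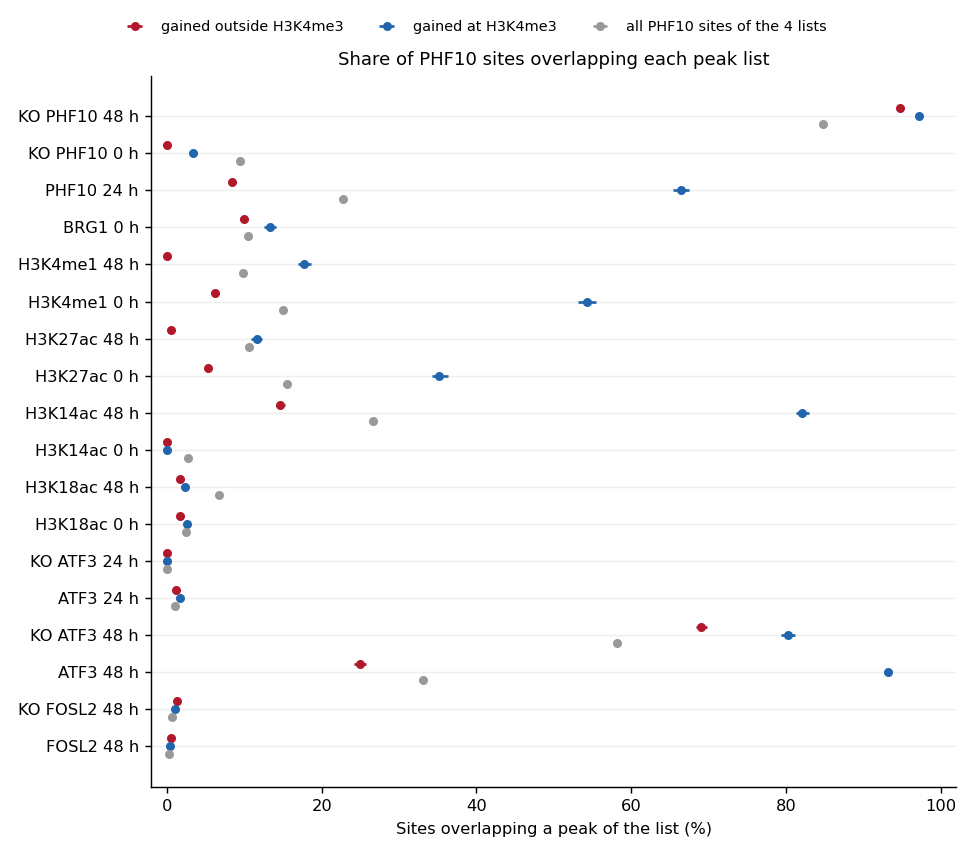
Share of PHF10 sites (%, horizontal axis) that overlap each peak list by at least 1 bp, for the 14654 gained sites outside H3K4me3, the 7913 gained sites at H3K4me3 and all 112181 sites; bars are exact 95% intervals, and names without KO are control lists. Outside H3K4me3 the shares were 94.7% for KO PHF10 at 48 h, 69% for KO ATF3, 24.9% for control ATF3 and 14.6% for H3K14ac, and the other lists lay under 10%.

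ATF3, a stress-induced factor, had the longest of the control bZIP lists, with 45716 peaks at 48 h against 3444 for FOSL2. At 48 h it lay at 3655 sites, 24.9% (24.2 to 25.7), under the background of 33.1%, and at gained sites at H3K4me3 its share was 93.2% (92.6 to 93.7). The gap held in each width class, with 24.2% and 89.6% in the narrowest and 31.3% and 94.8% in the widest. Reduced to the 3444 most significant peaks, the ATF3 list held 0.0205% of the sites. Sites of 48 h replicate 2 alone outside H3K4me3 had ATF3 in 9.28% (9.05 to 9.51). At 24 h, ATF3 lay at 169 sites (1.15%, background 1.05%), and at 0 h it lay at 0 sites (background 0.0125%). It lay at 47 sites at both 24 and 48 h, 0.321% (background 0.539%). ATF3 summits were concentrated on the sites, with 7.47 per 100 sites in each central bin and 1.37 beyond 4 kb. Of sites with ATF3 at 48 h, 22.1% (20.7 to 23.4) had PHF10 at 24 h, against 3.81% (3.46 to 4.18) of sites without, and 35.2% had H3K14ac at 48 h, against 7.81%.

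FOSL2 peaks at 48 h lay at 85 sites, 0.58% (0.464 to 0.717), and at 0 sites at 0 h (background 0.00178%), where its list held 7 peaks. The 48 h share was above the background of 0.319% and, with lists of equal length, above the ATF3 share of 0.0205%. The share at gained sites at H3K4me3 was 0.455% (0.319 to 0.629), with intervals that overlapped. Without control 48 h replicate 1 or 0 h replicate 2 the sign of that small difference turned round. The 85 sites took up 2.53% of FOSL2 peaks. FOSL2 summits were not concentrated on the sites, with 0.102 per 100 sites in each central bin and 0.0742 beyond 4 kb. FOSB lay at 10 sites at 48 h (background 0.0428%). FOSL2 also lay at 8 of them, 0.0546% of the gained sites outside H3K4me3 (background 0.0312%). At 0 h, control FOSB (background 0.00357%), KO ATF3 (0.016%), KO FOSL2 (0.00357%) and KO FOSB (0.00178%) each lay at 0 of the sites.

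**Figure D3:**
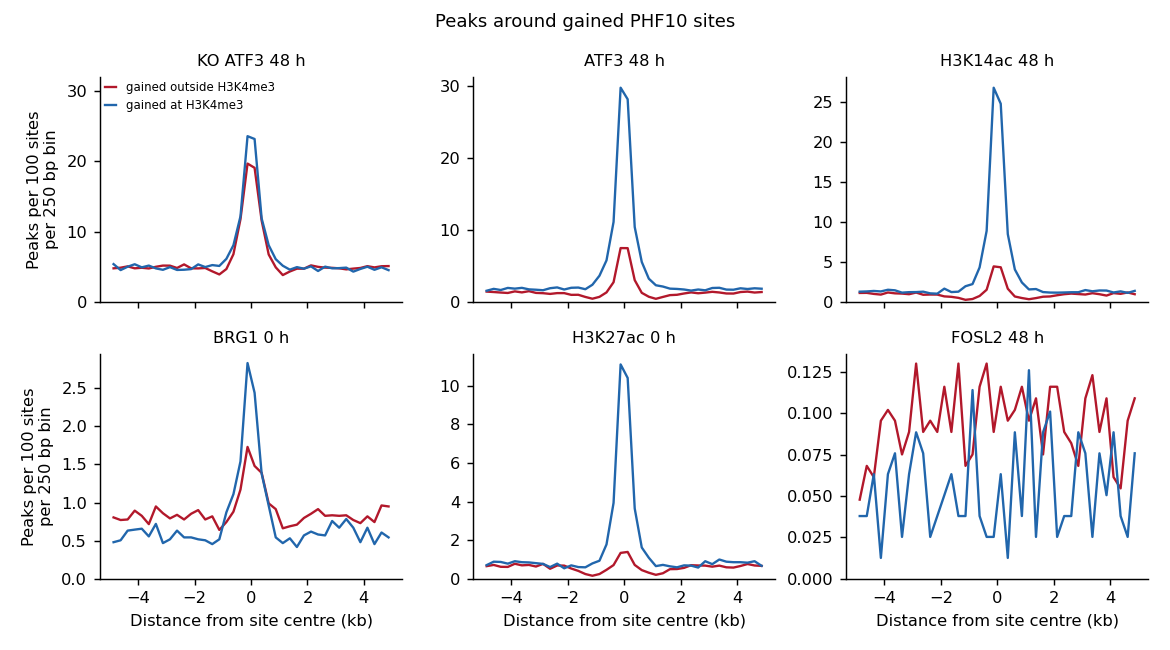
Peak summits (peak middles for BRG1, which has no summits) per 100 gained sites in 250 bp bins, against distance from the site centre in kb, for sites outside and at H3K4me3; each panel has its own vertical scale. Outside H3K4me3 the central bins held 19.4 per 100 sites for KO ATF3, 7.47 for control ATF3, 4.41 for H3K14ac and 1.6 for BRG1, while FOSL2 held 0.102.

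FOSL2 was more frequent at sites that had BRG1 at 0 h, and the ATF3 shares with and without BRG1 had overlapping intervals. FOSL2 lay at 68 of 1452 sites with BRG1, 4.68% (3.65 to 5.90), and at 17 of 13202 without, 0.129% (0.075 to 0.206). In the KO the FOSL2 shares were 8.88% (7.47 to 10.5) with BRG1 and 0.492% (0.38 to 0.627) without. ATF3 at 48 h lay at 24.2% (22.0 to 26.5) with BRG1 and at 25% (24.3 to 25.8) without. H3K27ac at 0 h went with BRG1, at 36.5% (34.0 to 39.0) against 1.85% (1.63 to 2.09). H3K14ac at 48 h did so less steeply, at 30% against 12.9%.

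FOSL2 was more frequent with BRG1 in each width class. In the narrowest class FOSL2 lay at 4 of 175 sites with BRG1 and 2 of 3492 without, and in the widest at 39 of 589 and 11 of 3073. Other PHF10 sites divided the same way for FOSL2, H3K27ac and H3K14ac, and over all sites ATF3 divided too. H3K27ac at 0 h lay at 68.1% and 9.35% of all PHF10 sites with and without BRG1. For H3K14ac at 48 h these shares were 67.7% and 21.8%. At gained sites at H3K4me3 they were 81.9% and 28.1% for H3K27ac, and 92.9% and 80.5% for H3K14ac. FOSL2 lay at 2.56% (1.69 to 3.71) and 0.131% (0.06 to 0.249) of gained sites at H3K4me3 with and without BRG1, and at 2.39% (2.12 to 2.69) and 0.0767% (0.0605 to 0.0958) of all PHF10 sites. ATF3 lay at 90% (88.1 to 91.8) and 93.6% (93 to 94.2) of gained sites at H3K4me3 with and without BRG1, but at 66.7% (65.8 to 67.5) and 29.2% (28.9 to 29.5) of all PHF10 sites.

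**Figure D4:**
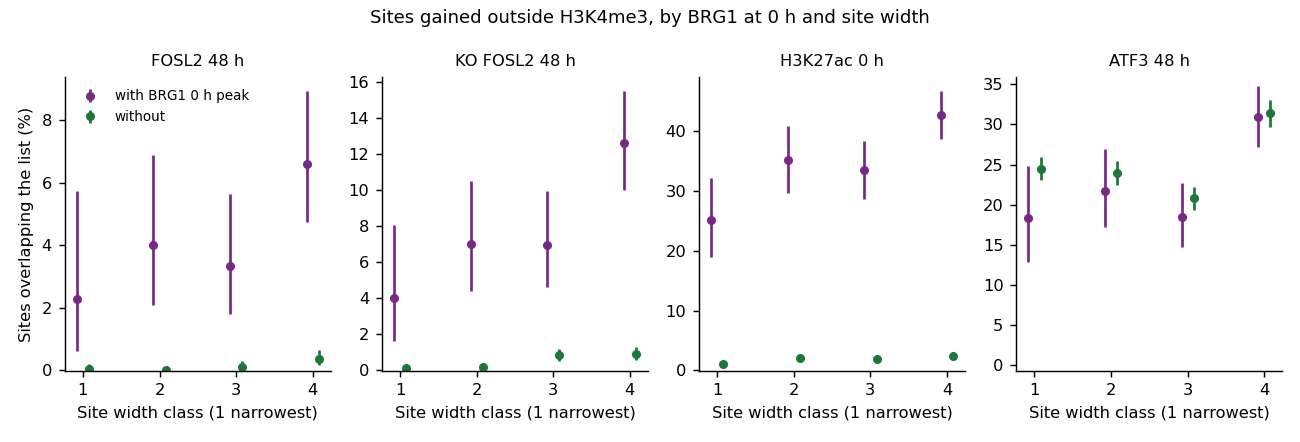
Share of gained sites outside H3K4me3 (%) that overlap control FOSL2, KO FOSL2, H3K27ac at 0 h and control ATF3 at 48 h, with and without a BRG1 peak at 0 h, by class of site width from the narrowest (1) to the widest (4); bars are exact 95% intervals. FOSL2 and H3K27ac were more frequent with BRG1 in every class, while the ATF3 shares lay between 18.3% and 31.4% in both.

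BRG1, FOSL2 and ATF3 met at 22 sites, 0.15% (0.0941 to 0.227), close to the 0.134% (0.113 to 0.157) of all PHF10 sites. The strongest in PHF10 lay over 100 kb from any protein-coding gene (chromosome 12, 109749687 to 109750183), with PHF10 fold 3.57 in the KO and 5.61 and 2.83 in the control 48 h replicates. It also had PHF10 at 24 h (3.9), FOSL2 in the KO (7.01) and control (5.99), and H3K27ac at 0 h (7.89). A site inside Rptor, which encodes the mTORC1 subunit raptor (chromosome 11, 119788688 to 119788989), had PHF10 fold 4.7 in the KO and 5.57 and 2.77 in control, and FOSL2 fold 7.77 and 8.59 in KO and control. In both, replicate 1 was the higher control library. The site inside Kank1, a cortical adhesion gene (chromosome 19, 25427959 to 25428865), had the highest FOSL2 of the 5 strongest, 14.8 in the KO and 17.2 in control, and was one of the 10 with FOSB (6.88). Its PHF10 fold was 3.38 in the KO and 2.96 and 2.88 in control. The other 2 of the 5 lay 83076 bp from Vps8 and 23269 bp from Commd7.

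In Pbrm1 KO cells, 13877 of the sites carried a PHF10 peak at 48 h, 94.7% (94.3 to 95.1), and 3 carried one at 0 h (0.0205%). The backgrounds were 84.8% and 9.48%. At gained sites at H3K4me3 the KO shares were 97.2% (96.8 to 97.6) at 48 h and 3.41% (3.02 to 3.84) at 0 h. The KO 48 h list was the longest of all, with 158815 peaks over 159.1 Mb, and the sites took up 8.57% of its peaks. Reduced to the 43549 most significant peaks, the length of control replicate 1, it held 31.1% (30.4 to 31.9) of the sites. Reduced to the 102434 of replicate 2, it held 75.1% (74.4 to 75.8). The corresponding shares of gained sites at H3K4me3 were 39.4% and 84%. Since the members were chosen in the control lists, a share in the KO has no control counterpart, and 1 KO library gives no spread.

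The 777 sites without a KO peak at 48 h (5.3%) were narrow, with a median width of 319 bp against 843 bp for the rest, and had a higher median control fold (3.42 and 2.88). In the narrowest class 85.5% (84.4 to 86.7) were called in the KO, and in the widest 99.6% (99.3 to 99.8). FOSL2 lay at 0 of the 777, a count of 0 that allows a share of up to 0.386%, and BRG1 at 4.5% (3.16 to 6.21). Both were near the shares in the narrowest class as a whole, 0.164% (0.0601 to 0.356) for FOSL2 and 4.77% (4.1 to 5.51) for BRG1. After Nnt, the strongest with a gene within reach were sites inside Erich6 (chromosome 3, 58616975 to 58617225; fold 5.01 and 5.87 in the 48 h replicates) and 42679 bp from Kdm7a, a histone demethylase gene (4.52 and 6.31). The Erich6 site carried KO ATF3 (7.36) with no KO PHF10.

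The 3 sites with KO PHF10 at 0 h all kept it at 48 h. They lay inside Lvrn, an aminopeptidase gene (KO fold 3.6 at 48 h and 4.2 at 0 h; control 3.51 and 4.98 at 48 h), 88337 bp from Plcl2 (3.18 and 3.8; control 2.92 and 2.6), and 95873 bp from Tcf7l2, a Wnt effector (3.28 and 4.67; control 2.51 and 2.76). All 3 had ATF3 and H3K14ac in control at 48 h.

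ATF3 at 48 h lay at 10114 of the sites in the KO, 69% (68.3 to 69.8), and at 3655 in control. The KO background was 58.1%, and the KO and control ATF3 lists held 144513 and 45716 peaks. With the KO list reduced to 45716 peaks, its share was 27% (26.3 to 27.7), beside 24.9% in control. At gained sites at H3K4me3 the reduced KO list held 36.8% (35.7 to 37.8), beside 93.2% in control. With a −log10 q of at least 5 in every list, the KO minus control difference was -2.34 percentage points over 171 sites, against 44.1 in the full lists. The interval of the -2.34 ran from -13 to 8.31 and took in 0. Both genotypes had ATF3 at 2742 sites, the KO alone at 7372 and control alone at 913, or 18.7%, 50.3% and 6.23%. Over all PHF10 sites these shares were 24.9%, 33.2% and 8.18%. At 24 h ATF3 lay at 2 sites in the KO (background 0.0259%) and at 169 in control, from lists of 69 and 2004 peaks.

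FOSL2 at 48 h lay at 194 sites in the KO, 1.32% (background 0.665%), and at 85 in control, from lists of 7381 and 3444 peaks. Both genotypes shared 80 sites, the KO alone had 114, of which 65 had BRG1 at 0 h, and control alone had 5. The shares were 0.546% for both, 0.778% for the KO alone and 0.0341% for control alone, beside 0.284%, 0.381% and 0.0348% over all PHF10 sites. The KO alone with BRG1 was 0.444%, beside 0.25%. With the KO list reduced to 3444 peaks the KO count was 86 (0.587%), within counting error of the control count. FOSB lay at 1 site in the KO (background 0.0107%) and 10 in control.

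No control peak of BRG1, ATF3, FOSL2, FOSB or any histone mark touched 8918 of the sites, or 60.9% (60.1 to 61.6). With H3K4me3 left out of the marks, the share over all PHF10 sites was 59.9% (59.6 to 60.2), close to it. All PHF10 sites mix unlike classes. The share was 1.73% (1.46 to 2.04) over gained sites at H3K4me3. Over sites of 48 h replicate 2 alone outside H3K4me3 it was 84.5% (84.2 to 84.8). Nnt, Ankrd17 and the site 50240 bp from Cdkn2b, a gene for a cyclin-dependent kinase inhibitor, were the strongest of these with a gene within 100 kb. The Cdkn2b site had PHF10 fold 3.96 in the KO and 5.49 and 6.18 in the control replicates.

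A gained site outside H3K4me3 lay within the span of, or 10 kb from, 7651 of 21887 protein-coding genes, or 35%. The share was above that in each of the 9 gene lists, from 8 of 20 housekeeping genes (40%) to 17 of 22 Hippo and YAP targets (77.3%). The lists are short, with 20 to 50 genes, and no intervals were made, so small excesses cannot be told from counting error. Matrix genes had 15 of 25, epithelial genes 25 of 40, SWI/SNF subunits 18 of 28, integrin and cytoskeleton genes 14 of 25, mesenchymal and TGFβ response genes 23 of 50, and AP-1 and ATF genes 11 of 23. Markers of other cell types had 12 of 26. The lists also differed in gene length, with a median of 58047 bp for the Hippo list, 4739 bp for housekeeping genes and 17169 bp for all genes, and the part of length in these counts was not tested.

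Among TGFβ signalling genes, the strongest site of Ltbp1, which encodes a latent TGFβ binding protein (chromosome 17, 75164330 to 75164575), had PHF10 fold 4.47 in the KO and 4.36 and 3.76 in the control 48 h replicates. KO ATF3 lay there (4.6) and control ATF3 did not. At Smad7, an inhibitor of TGFβ signalling, a site of 3186 bp had 3.17 in the KO and 3.55 and 3.36 in control. It was one of the few with H3K27ac at both times (5.09 at 48 h and 3.38 at 0 h), and it held H3K14ac (6.06) at 48 h.

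Matrix and contractile genes followed. The Fn1 site, beside the fibronectin gene (chromosome 1, 71580574 to 71580823), had 3.24 in the KO and 6.12 and 2.98 in control, so replicate 1 stood well above both other libraries. Tpm1, a tropomyosin gene, had 4.08 in the KO and 4.65 and 2.99 in control. Fbn1, the fibrillin gene (chromosome 2, 125499554 to 125499805), had no KO peak, with 3.9 and 3.63 in control and ATF3 (4.69). Col4a2, a basement membrane collagen gene, had 6 sites, the strongest at 3.11 in the KO and 3.7 and 3.25 in control.

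Hippo pathway genes gave the strongest list site. It lay in Ankrd1, a YAP target (chromosome 19, 36112056 to 36112342), with 5.83 and 4.03 in control and no KO peak. Ptpn14, a phosphatase that binds YAP, had 6 sites, Tead1, the DNA-binding partner of YAP, had 4, and Crim1 had 2. The strongest Crim1 site was the only one of the 25 strongest list sites with PHF10 at 24 h (5.13). It had the highest KO fold of the 25 (5.69), beside 3.7 and 3.53 in control.

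Epithelial genes included the tight junction genes Ocln and Tjp1. The Ocln site (chromosome 13, 100541967 to 100542236) had no KO peak, 4.71 and 3.7 in control, and H3K14ac (12.7) and ATF3 (9.82) at 48 h. The Tjp1 site, inside the ZO-1 gene (chromosome 7, 65466348 to 65467026), had 2.93 in the KO and 4.37 and 3.01 in control. It was one of 2 among the 25 with BRG1 at 0 h (3.77), together with a site near Polr2a, and it had H3K27ac (3.02) and H3K18ac (8.35) at 0 h and neither at 48 h.

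Genes of the remodeller itself also had sites. Arid1a, which encodes the BAF subunit that defines that form, had 3, the strongest at 5.06 and 4.32 in control with no KO peak. Its paralogue Arid1b had 11, the strongest at 3.45 in the KO and 3.05 and 3.91 in control, with ATF3 (6.88). The single site in Phf10 (chromosome 17, 14952935 to 14953924) had 3.61 in the KO and 3.77 and 3.64 in control, and ATF3 (3.68). The bZIP genes Batf, Batf3 and Atf6 each had a site among the 25. None of the 25 carried FOSL2, which lay at 0.58% of all 14654 sites in control at 48 h.

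**Figure D5:**
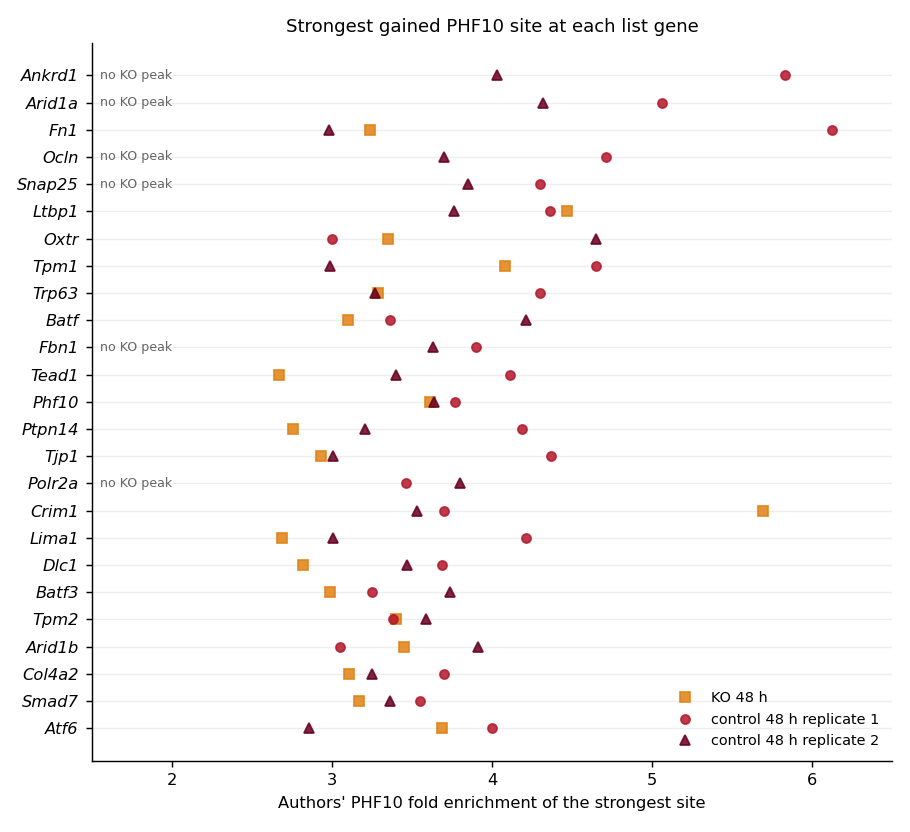
PHF10 fold enrichment of the strongest gained site outside H3K4me3 at each of the 25 list genes with the highest values, in the KO 48 h library and in control 48 h replicates 1 and 2. The strongest sites of Ankrd1, Arid1a, Ocln, Snap25, Fbn1 and Polr2a had no KO peak, and the widest gap between the control replicates was at Fn1 (6.12 and 2.98).

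Across the lists, FOSL2 in either genotype lay at 7 sites of 6 genes, named here after their values were seen. Mafk, which encodes a small MAF partner of bZIP proteins (chromosome 5, 139794818 to 139797057), had FOSL2 fold 11.5 in the KO and 6.25 in control, with PHF10 at 3.06 and at 2.36 and 2.52. Ptpn14 (chromosome 1, 189799917 to 189802406) had FOSL2 at 9.7 and 6.03, and the Foxc2 site, which lies inside Mthfsd, at 7.8 and 5.73. FOSL2 was called in the KO alone at 2 sites of Pmepa1, which dampens TGFβ signalling as a feedback target (5.98 and 6.69), at the integrin gene Itgb5 (4.77) and at the paxillin gene Pxn (6.73). BRG1 at 0 h lay at 5 of these 7 sites, absent at Foxc2 and Pxn, and KO ATF3 lay at all 7. Both were frequent beyond these genes. BRG1 lay at 129 of the 194 sites with KO FOSL2 at 48 h, which all 7 sites had. It lay at 80% (69.9 to 87.9) of the 85 sites with control FOSL2 at 48 h. KO ATF3 at 48 h lay at 69% of all 14654 sites and at 87.8% of the widest class.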

How the data were processed

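Peak lists of 32 ChIP-seq libraries were used, and the 15 input samples were not used here. Per the submitters' processing notes, the build was mm10 and the tools included MACS3 3.0.0a7 and Bowtie2 2.3.3, as well as deepTools 3.5.1, fastp 0.19.5 and Partek 11.0.24.0325; their roles are not stated there. Each deposited list gives, per the file headers, a pileup signal, −log10 p-values and q-values and a fold enrichment (a ratio) per peak, all of them the authors' values. PHF10 and BRG1 lists reach down to a −log10 q between 1.00 and 1.05, and every other list starts at 1.30 or higher, so the lists differ in threshold. Read depth is unknown, and list length could not be corrected for it.

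Overlapping PHF10 peaks were joined, and sites were matched to other lists with an overlap of at least 1 bp. Shares have exact Clopper-Pearson 95% intervals. No test between conditions was made, since all lists but control PHF10 had 1 library. The replicate lists shared 2 peaks with identical coordinates at 48 h and 0 at 0 h. Gene and promoter positions came from RefSeq on GRCm38.p6. Values at a site are those of the highest peak in it. Start positions in the lists were taken as counted from 0, which no header states, so a printed start may be off by 1 bp.

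Sites were named by the protein-coding gene they overlap, or else by the nearest gene end within 100 kb. The rule named the 10 sites with the highest mean fold, the 25 list genes with the strongest site within 10 kb, and the 5 strongest sites of each overlap class. Members, gene lists and comparisons were chosen with earlier results of these data known. The alternatives were a −log10 q of at least 5, a 50% overlap, H3K4me3 widened by 1 kb, PHF10 lists reduced to the shortest, other lists reduced to a common length, and each PHF10 library left out. Overlap counting was tested on simulated data. Python 3.11.15, numpy 2.4.6, pandas 2.3.3, scipy 1.17.1 and matplotlib 3.10.9 were used.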

Additional observations from a re-analysis of the deposited data

Results flagged for a closer look

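ATF3 at the gained sites outside H3K4me3 differed between Pbrm1 KO and control in opposite directions at the 2 times. At 24 h it lay at 2 sites in the KO and 169 in control, and at 48 h at 10114 in the KO and 3655 in control, a KO minus control difference of 44.1 percentage points at 48 h. The difference between the times was not tested, and each list is 1 library. The KO and control lists held 69 and 2004 peaks at 24 h and 144513 and 45716 at 48 h. At equal length the 48 h shares were 27% in the KO and 24.9% in control.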

How the results depend on the processing

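No paired analysis was possible because the results come from no test; control PHF10 at 48 h and 0 h share replicate numbers 1 and 2, and the site rule asks for the gain in both. With only peaks of −log10 q of at least 5, the number of sites was 171, and the shares were 3.51% for BRG1, 0% for H3K27ac, 17% for H3K14ac, 1.75% for FOSL2, 39.8% for ATF3 and 39.2% for KO PHF10, all at 48 h but BRG1. With PHF10 lists reduced to the shortest, there were 286 sites, with 17.1% for BRG1, 0.35% for H3K27ac, 20.6% for H3K14ac, 1.4% for H3K18ac, 1.05% for FOSL2, 40.2% for ATF3 and 86% for KO PHF10. An overlap of 50% gave 7.6% for BRG1, 0.395% for H3K27ac, 1.25% for H3K18ac and 93.5% for KO PHF10. The ATF3 list reduced to the FOSL2 length gave 0.0205%, and the KO PHF10 list reduced to control replicate 1 or 2 gave 31.1% or 75.1%.

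Leaving out 1 PHF10 library gave 14667 to 74113 sites, with the highest count without 48 h replicate 1. The shares ran from 5.02% to 9.94% for BRG1, 0.188% to 0.511% for H3K27ac, 5.8% to 14.8% for H3K14ac, 0.668% to 1.74% for H3K18ac, 0.243% to 0.585% for FOSL2, 12.4% to 25.1% for ATF3 and 85% to 94.7% for KO PHF10. The FOSL2 difference between sites outside and at H3K4me3 (0.125 points) was -0.0259 without 0 h replicate 2 and ran from -0.0351 without 48 h replicate 1 to 0.194 without 48 h replicate 2. The ATF3 difference between KO and control (44.1 points) was -2.34 with the q threshold, with an interval that took in 0 (-13 to 8.31). The FOSL2 difference by BRG1 was positive throughout, from 3.03 to 15.5 points, but its interval took in 0 under the q threshold (15.5) and the shortest lists (6.12). The cause of these shifts was not tested. The reductions of the KO ATF3, KO FOSL2 and H3K14ac lists, and of KO PHF10 to replicate 2, were chosen after seeing the data. Of 45 named sites, 10 overlapped a site under the q threshold and 15 under the shortest lists.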

Other observations

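Gained sites outside H3K4me3 covered 44 of 1005 annotated miRNA hairpins (4.38%), some of them in the same site. The share covered by all PHF10 sites was not counted, so a preference for hairpins cannot be read from this. One site on chromosome 8 (84207914 to 84208930) held Mir23a, Mir27a and Mir24-2, with PHF10 fold 3.13 and 3.66 in the 48 h replicates and no BRG1 or ATF3 peak. Another on chromosome 12 (109742504 to 109744009) held Mir409, Mir412, Mir369 and Mir410 of an imprinted cluster, with 2.61 and 3.05. The Mirlet7b site had 2.3 and 2.49 and carried BRG1 at 0 h, and the Mir675 site had 2.95 and 3.11 and carried ATF3 at 48 h.

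Most genes near a site had 1, and the few with many were mostly long. Sites per kb of gene were not counted. Of 7651 genes with a site within 10 kb, 4538 had 1 and 51 had 10 or more, and the median length of those 51 was 204488 bp against 17169 bp for all genes. Gse1 had 29, Zmiz1 24, and Septin9 and Zfp469 23 each. Per 100 protein-coding genes, chromosomes 15 and 19 held 108 sites each, chromosome 14 held 32.8 and X held 29.4. The same counts over all PHF10 sites were not made.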
